A study of Mus musculus with 47 samples.

Results

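Mature oligodendrocytes wrap axons of the central nervous system in myelin, a stack of compacted membrane that is rich in galactolipids and in a small set of structural proteins. Transcription factors such as Myrf switch this gene programme on when a precursor cell stops dividing and differentiates. In rodents, myelination of the hippocampus continues well into adult life. The 38 genes described here were listed as genes of mature oligodendrocytes and myelin. They encode compact myelin and junction proteins, surface and adhesion proteins, cytoskeletal proteins, and enzymes of lipids and metabolism. The rest encode 2 transcription factors, including Myrf itself, and secreted, transport and stress proteins. The list is not limited to genes of oligodendrocytes alone, as leptomeninges and choroid plexus also make Ptgds. The 38 genes were chosen by name, and all were among the 35486 genes of the hippocampal count table. All 38 also passed the filter on low counts, which left 17778 genes for testing, and together they held 0.8819% of all reads.

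RNA was sequenced from the whole hippocampus of 47 male C57BL/6J mice, with 1 library per mouse. Young mice were 3.75 to 5.26 months old and old mice 17.4 to 20.23 months old. Each age was given either vehicle (Veh) or platelet factor 4 (PF4), a chemokine released by platelets, by systemic injection. The groups were Young Veh (n = 13), Young PF4 (n = 12), Old Veh (n = 12) and Old PF4 (n = 10). The mice also went through behavioural tests before the tissue was taken. In a bulk measurement of this kind, fewer oligodendrocytes and less RNA per oligodendrocyte cannot be told apart.

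The libraries held 2242879 to 21112908 reads in genes, with a median of 10374007, and 4 of the 8 shallowest were Old Veh. Neuronal markers were above 0 reads in every library, with a summed level of 7328 to 9683 counts scaled to library size (CPM) over 8 genes, against 48.1 to 118.4 CPM for 4 thalamic markers in 46 libraries, 309.5 CPM in Young PF4 replicate 8, which was also among the 8 shallowest, and 57.4 to 125.1 CPM for 5 striatal markers. The amount of choroid plexus, the tissue that makes cerebrospinal fluid, differed greatly between dissections: 10 of its markers summed to a median of 1941 CPM in Young Veh (range 12.0 to 4254) and 47.04 CPM in Old Veh (range 15.04 to 4253). In 4 of the 12 Old Veh and 3 of the 10 Old PF4 libraries at least 1 of these markers had no read, including Kcne2, Aqp1 and Slc4a5. Meningeal fibroblast markers summed to medians of 158.1 CPM in Young Veh and 110.8 CPM in Old Veh. A length index, the mean level of genes with long transcripts minus that of genes with short ones on the log2 scale, was lowest in Young Veh replicate 4 at -0.348, followed by Old PF4 replicate 8 at -0.228 and Young PF4 replicate 4 at -0.163, was highest in Young Veh replicate 13 at 0.178, and averaged -0.02 in Young Veh and 0.04 in Old Veh. The library numbers in the sample titles ran from 1 to 12 in Old Veh, from 13 to 23 in Old PF4 and from 24 to 48 in the young groups. The ages therefore had no library number in common, and neither had Old Veh and Old PF4.

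For the genes that differed with age, the 250 bases before a RefSeq transcript start are printed for the 4 of them that had a promoter window (GRCm38.p6, all on the minus strand, written 5′ to 3′ in the direction of transcription). They are the windows of Anln at chr9:22389207-22389456, Aspa at chr11:73324638-73324887, Plekhb1 at chr7:100662395-100662644 and Tmem88b at chr4:155785875-155786124. The RefSeq start used for Aspa lies inside the GENCODE span of the gene, which has a transcript that begins farther upstream, so that its window is not upstream of the whole gene, and the Plekhb1 window overlaps the GENCODE span at its edge. Capitals mark exact matches, on either strand, to the motifs searched.
Anln: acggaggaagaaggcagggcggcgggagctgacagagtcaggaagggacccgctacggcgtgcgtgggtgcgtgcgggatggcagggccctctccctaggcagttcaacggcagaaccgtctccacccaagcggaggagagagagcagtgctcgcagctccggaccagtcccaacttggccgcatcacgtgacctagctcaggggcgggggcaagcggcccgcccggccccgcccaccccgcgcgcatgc
Aspa: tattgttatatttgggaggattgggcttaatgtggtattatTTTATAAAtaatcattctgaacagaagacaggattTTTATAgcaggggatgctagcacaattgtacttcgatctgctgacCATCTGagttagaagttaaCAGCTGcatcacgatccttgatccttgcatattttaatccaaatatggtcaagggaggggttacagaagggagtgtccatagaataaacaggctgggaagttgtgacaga
Plekhb1: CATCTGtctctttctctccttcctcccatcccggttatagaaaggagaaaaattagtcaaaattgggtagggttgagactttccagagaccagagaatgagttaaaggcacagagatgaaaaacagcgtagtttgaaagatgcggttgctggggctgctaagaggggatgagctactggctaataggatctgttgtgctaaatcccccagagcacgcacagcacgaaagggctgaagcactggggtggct
Tmem88b: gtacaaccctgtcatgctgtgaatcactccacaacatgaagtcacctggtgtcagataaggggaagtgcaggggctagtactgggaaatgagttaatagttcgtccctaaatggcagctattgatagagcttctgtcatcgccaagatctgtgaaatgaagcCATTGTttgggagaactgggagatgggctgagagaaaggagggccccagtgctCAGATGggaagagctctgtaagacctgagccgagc
The motifs were CTGGCAC and CTGGTAC (the Myrf motif), ACAAAG and ACAATG (Sox factors), CAGCTG and CAGATG (E-boxes, which basic helix-loop-helix factors such as Olig2 bind) and TATAAA (the TATA box). The Aspa window held 3 matches to TATAAA, 2 of them overlapping, and both E-boxes. The Tmem88b window held ACAATG and CAGATG, the printed Plekhb1 window held CAGATG at its far end (the other Plekhb1 window, at a start inside the gene, held ACAAAG), and the Anln window, with a GC content of 70.4%, held none of the 7. Over the 300-base windows of all members, 30 of the 38 genes had 42 windows, and CTGGCAC was found in 6 of them (14.3%), those of Adssl1, Cnp, Hapln2, Mag and Opalin, against 5.01% of all 32851 windows in the genome. CTGGTAC was found in the window of Mog alone, 2.38% of member windows against 2.24% of all. CAGATG was present in 35.7% of member windows and 17.2% of all windows, CAGCTG in 23.8% and 16.3%, ACAAAG in 26.2% and 18.7%, ACAATG in 16.7% and 12.6%, and TATAAA in 9.52% and 13.6%. These are counts of letters, with no test, and some windows belong to the same gene.

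The members spanned a wide range of levels, compared here as CPM divided by the length of the longest transcript in kilobases (RPKM). Mbp, whose protein holds the cytoplasmic faces of the myelin membrane together, was highest with a mean of 643.1 RPKM over all mice. It was followed by Ptgds, the prostaglandin D2 synthase that leptomeninges and choroid plexus also make, at 480.0 RPKM. The iron carrier Trf (272.9 RPKM) and Mobp, a basic protein of compact myelin (258.7 RPKM), came next and differed by less than their spread. Car2, a carbonic anhydrase, followed at 197.4 RPKM, then Qdpr, which regenerates the cofactor tetrahydrobiopterin, at 183.9 RPKM, and Cnp, a phosphodiesterase tied to the cytoskeleton of myelin channels, at 170.0 RPKM. The lowest were the transcription factor Myrf (6.76 RPKM), Aspa (5.94 RPKM) and the adhesion protein Ninj2, which at 2.67 RPKM rested on as few as 3 reads in a library.

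**Figure D1:**
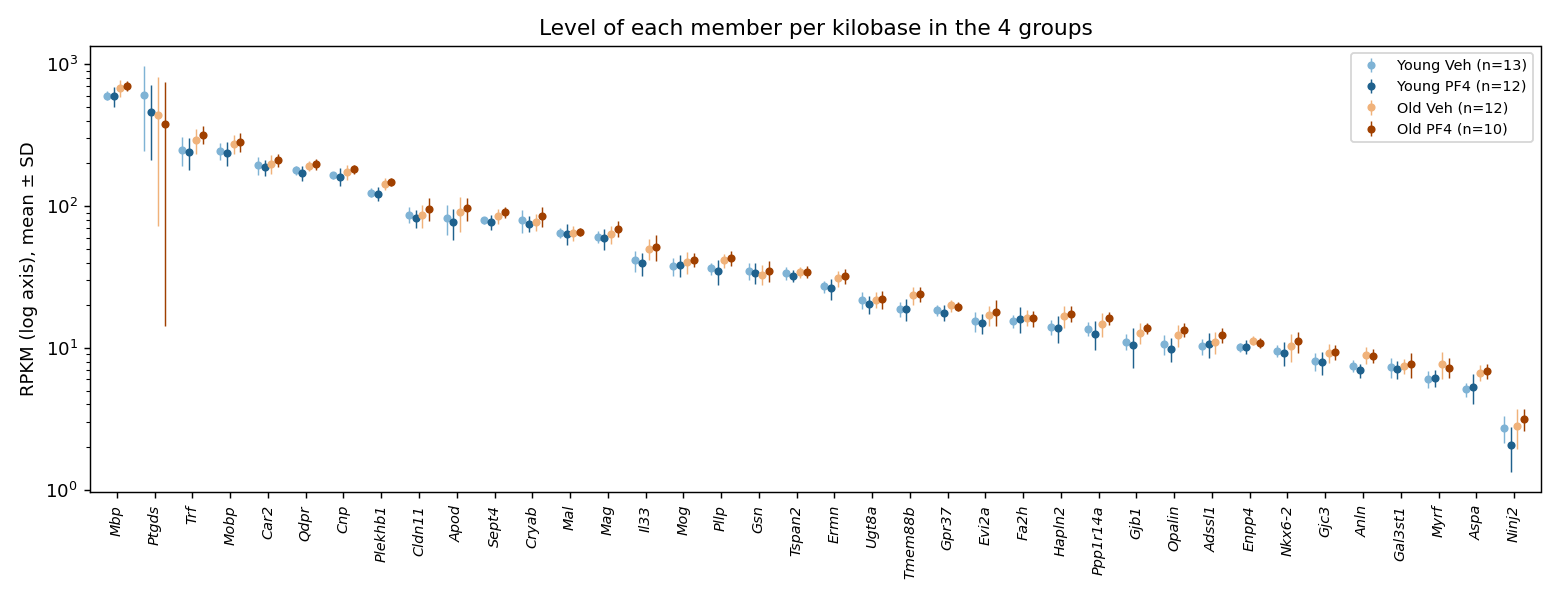
RPKM on a log axis (mean ± SD) of each of the 38 members in Young Veh, Young PF4, Old Veh and Old PF4, ordered by the mean over all mice. Mbp is highest at 643.1 RPKM and Ninj2 lowest at 2.67, and the error bars of Ptgds are by far the longest.

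Reads of some members could also belong to a neighbour with which they share exonic sequence. In the GENCODE annotation exons of 11 members overlapped those of another gene, on the same strand for 4 of them (Mobp, Evi2a, Sept4 and Trf) and on the opposite strand, which unstranded libraries cannot separate, for 7. The overlapping gene was in the count table for 10 of the 11. The case with most reads was Trf, where the overlapping gene model Gm20425 on the same strand held 319222 reads over all libraries beside 336306 for Trf. Nkx6-2, a homeobox factor of oligodendrocytes, shared exonic sequence with Inpp5a on the opposite strand, which held 23093 reads beside 9068. None of the 5 members that differed with age had such an overlap.

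With age, 5 members were higher in Old Veh than in Young Veh and none was lower. They were Aspa, which splits N-acetylaspartate into aspartate and the acetate used for lipid synthesis, Myrf, the membrane-bound transcription factor required for myelin gene expression, Anln, which scaffolds septin filaments in myelin, Plekhb1, a membrane-binding protein with a pleckstrin homology domain, and Tmem88b, a transmembrane protein. The comparison sets old against young mice that were given vehicle, and age and library number (1 to 12 in Old Veh, 24 to 48 in the young groups) cannot be told apart in it. By the quasi-likelihood F test of edgeR, adjusted over all genes by the Benjamini-Hochberg method, 5 of 38 (13.2%) were called higher at an adjusted p below 0.05, where 2.16% of all genes tested were called higher and 0.607% lower. The fold changes of the 5 were small, between 0.20 and 0.38 on the log2 scale.

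Aspa (chr11:73304992-73329596, minus strand) ranged from 17.8 to 24.7 CPM in Young Veh with a median of 22, and from 20.0 to 31.6 CPM in Old Veh with a median of 28.8. In 10 of 12 Old Veh mice it was above all 13 Young Veh mice, the cleanest separation of any member. The log2 fold change was 0.38 ± 0.09 (SE; edgeR adjusted p = 0.00719).

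Tmem88b (chr4:155781591-155785874, minus strand) ranged from 51.7 to 76.7 CPM in Young Veh (median 65.2) and from 63.3 to 97.3 CPM in Old Veh (median 83.5). The groups overlapped, but 8 of 12 Old Veh mice exceeded every Young Veh mouse. The log2 fold change was 0.32 ± 0.08 (SE; edgeR adjusted p = 0.0112).

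Anln (chr9:22332012-22389188, minus strand) had a median of 34.3 CPM in Young Veh (range 28.1 to 40.5) and of 41 CPM in Old Veh (range 31.9 to 49.9). There, 7 of 12 Old Veh mice were above all Young Veh mice and 11 of 12 above their median. The log2 fold change was 0.26 ± 0.07 (SE; edgeR adjusted p = 0.0236), and the adjusted p was 0.0532 without Old Veh replicate 1.

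Plekhb1 (chr7:100642892-100662414, minus strand), the most abundant of the 5, had a median of 351.5 CPM in Young Veh (range 306.0 to 394.7) and 399.1 CPM in Old Veh (range 331.1 to 474.0). Old Veh exceeded all Young Veh mice in 6 of 12 cases. The log2 fold change was 0.20 ± 0.05 (SE; edgeR adjusted p = 0.0262).

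Myrf (chr19:10208272-10240748, minus strand) had a median of 35.6 CPM in Young Veh (range 22.4 to 38.7) and 44.02 CPM in Old Veh (range 24.8 to 59.9). It was above all Young Veh mice in 9 of 12 Old Veh mice, while the lowest Old Veh mouse lay near the bottom of the young range. The log2 fold change was 0.33 ± 0.10 (SE; edgeR adjusted p = 0.0415). This call was the least firm of the 5. Its edgeR adjusted p was 0.109 without Old Veh replicate 1 and 0.0725 without Young Veh replicate 4, with a log2 fold change of 0.28 in each. It was 0.0530 with no filter on low counts and 0.0600 with only the groups compared. The call was also lost without several other single mice.

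**Figure D2:**
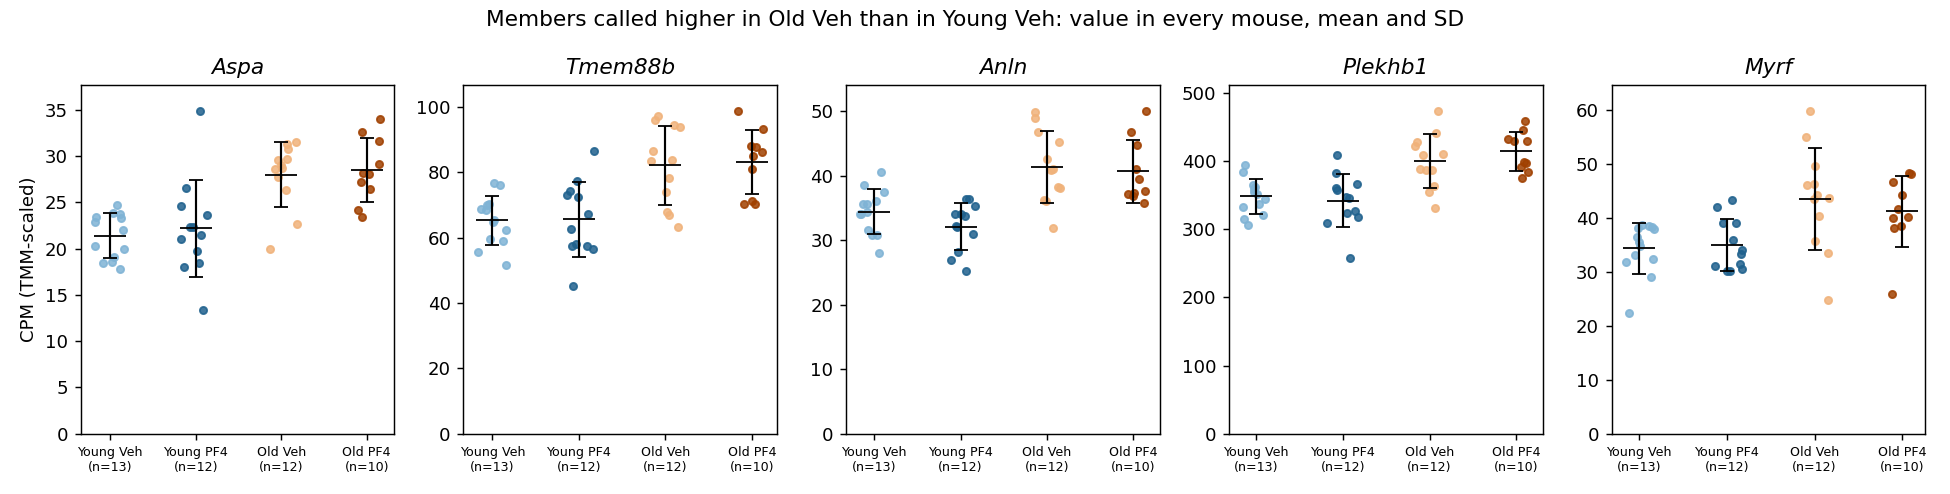
CPM of Aspa, Tmem88b, Anln, Plekhb1 and Myrf in every mouse by group, each point 1 mouse, with the mean and SD in black. Old Veh exceeded all 13 Young Veh mice in 10, 8, 7, 6 and 9 of 12 mice respectively, and the Old PF4 points overlap those of Old Veh.

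The other members mostly lay on the same side of 0 without passing the test. Of all 38, 33 had a log2 fold change above 0 and the median was 0.11, while 45.26% of all genes tested were above 0 and their median was -0.01. An unadjusted p under 0.05 was reached by 14 members (36.8%) and by 15.2% of all genes. DESeq2 called 6 members higher, adding Hapln2, a link protein of the matrix at nodes of Ranvier, against 2.86% of all genes called higher by that tool. In edgeR Hapln2 had a median of 31.8 CPM in Young Veh and 39.6 CPM in Old Veh, with a log2 fold change of 0.27 ± 0.09 (SE) and an adjusted p of 0.0733.

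Among the 8 compact myelin and junction genes none was called, and 6 were above 0 with a median log2 fold change of 0.17. Mbp ranged from 2581 to 3158 CPM in Young Veh (median 2904) and from 2527 to 4142 CPM in Old Veh (median 3223), and its log2 fold change of 0.18 ± 0.07 (SE) had an edgeR adjusted p of 0.150. The gap junction genes Gjb1 and Gjc3 stood at 0.21 and 0.20, the raft protein Pllp at 0.19, and Mobp at 0.16 on the log2 scale. The tight junction protein Cldn11 and the raft protein Mal lay just below 0, at -0.02 and -0.01, and the tetraspanin Tspan2 at 0.02.

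All 8 surface and adhesion genes were above 0, with 1 called (Tmem88b) and a median of 0.13. Opalin, a glycoprotein of mature oligodendrocytes, stood at 0.22 and the receptor Gpr37 at 0.11. Mag and Mog, the adhesion protein next to the axon and the protein of the outermost myelin surface, had log2 fold changes of 0.06 and 0.09. Evi2a and Ninj2 stood at 0.14 and 0.05.

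Of the 7 cytoskeletal genes 2 were called, 6 were above 0 and the median was 0.11. The actin-binding protein Ermn stood at 0.19, Sept4, a septin, at 0.11, Ppp1r14a, an inhibitor of myosin phosphatase, at 0.10, and Cnp at 0.08. The actin-severing protein Gsn was the member below 0, at -0.09.

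All 7 genes of lipids and metabolism were above 0, and Aspa was the one called. The galactolipid enzymes were close to 0: Ugt8a, which makes galactosylceramide, at 0.01, Gal3st1, which sulphates it, at 0.01, and Fa2h, which hydroxylates its fatty acids, at 0.06. Enpp4, a phosphodiesterase, stood at 0.15 with an edgeR adjusted p of 0.0833, Adssl1, an enzyme of AMP synthesis, at 0.11 and Qdpr at 0.10. Of the transcription factors, Nkx6-2 stood at 0.10 beside Myrf.

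None of the 6 secreted, transport and stress genes was called. The nuclear cytokine Il33 had a median of 100.7 CPM in Young Veh and 121.3 CPM in Old Veh. It was above the Young Veh median in 12 of 12 Old Veh mice, although only 1 of them exceeded the whole young range, and its log2 fold change of 0.27 ± 0.09 (SE) had an edgeR adjusted p of 0.105. Trf stood at 0.22, Apod, a lipid carrier, at 0.13, Car2 at 0.04 and the small heat shock protein Cryab at -0.04. Ptgds had the most negative value, -0.47 ± 0.37 (SE; edgeR adjusted p = 0.580), with medians of 669.1 CPM in Young Veh and 296.4 CPM in Old Veh and ranges that spanned 335.3 to 1972 and 161.9 to 1463 CPM.

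The calls depended on how differences between libraries were treated. They numbered 2 (Aspa and Tmem88b) without the 8 shallowest libraries, where 0.864% of all genes tested were called higher, and the same 2 with sequencing depth as a covariate, where 1.51% were. They numbered 9 with the length index as a covariate, where 3.03% of all genes were called higher, and 0 with library number as a covariate, where 0 of all genes were called. Myrf was not among the 9 (log2 fold change 0.28, edgeR adjusted p = 0.0581). Without the 8 shallowest libraries the log2 fold changes that lost their call were 0.20 for Plekhb1, 0.21 for Anln and 0.32 for Myrf. The log2 fold changes that lost their call with depth as a covariate were 0.19 for Plekhb1, 0.21 for Anln and 0.31 for Myrf, while with library number they were 0.39 for Aspa, 0.20 for Tmem88b, 0.18 for Myrf, 0.13 for Anln and 0.12 for Plekhb1.

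Other oligodendrocyte genes, from a separate list of 34, had 2 called higher with age and none lower, with a median log2 fold change of 0.06. For this and the lists that follow, the shares over all genes tested were 2.16% called higher and 0.607% called lower. St18, a zinc finger factor, had medians of 43.03 CPM in Young Veh and 53.7 CPM in Old Veh (log2 fold change 0.30 ± 0.06 SE, edgeR adjusted p = 0.00230), and Pmp22, a myelin protein best known from peripheral nerve, had medians of 29.6 and 36.9 CPM (0.30 ± 0.06 SE, edgeR adjusted p = 0.00318). Among 11 genes of precursors and newly formed oligodendrocytes, none was called higher and Gpr17, a receptor of the premyelinating stage, was lower, with medians of 28.2 CPM in Young Veh and 17.2 CPM in Old Veh. Its log2 fold change was -0.56 ± 0.11 (SE; edgeR adjusted p = 0.00205). Of 18 genes of cholesterol synthesis, which supplies the myelin membrane, Lss (lanosterol synthase) was called higher at 0.23 ± 0.06 (SE; edgeR adjusted p = 0.0200), and the list median was 0.02.

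Markers of other cells also moved between these groups. All 10 choroid plexus markers and all 9 meningeal markers had log2 fold changes below 0 in Old Veh against Young Veh, with medians of -0.92 and -0.59, and of the 19 only Col1a1 was called. All 8 microglial markers were above 0 (median 0.19), and C1qa and C1qb were called higher. Of 8 astrocyte markers Slc1a2 was called higher and Aldh1l1 lower, and no neuronal or endothelial marker was called. The part of microglia and astrocytes in the members' values was not tested. With the choroid plexus level as a covariate the calls were Anln, Aspa, Plekhb1 and Tmem88b, where 1.57% of all genes tested were called higher, and with the meningeal level they were these 4 and Apod, where 1.75% were. Myrf lost its call in both fits, with log2 fold changes of 0.31 with the choroid plexus covariate and 0.33 with the meningeal one.

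PF4 given to old mice led to no call among the members. Library numbers ran from 1 to 12 in Old Veh and from 13 to 23 in Old PF4, so PF4 and library number cannot be told apart here. Of the 38, none was called between Old PF4 and Old Veh, where 0.0337% of all genes tested were called in either direction by edgeR, and none had an unadjusted p under 0.05, which 6.2% of all genes had. DESeq2 called none of the members either, where 0.169% of all genes tested by that tool were called in either direction. Old Veh is the comparison group here and the older group in the age comparison, so the values of the 2 comparisons share those 12 mice. The log2 fold changes lay between -0.20 and 0.16, with a median of 0.05 beside 0.01 over all genes. Of the members 32 were above 0, as were 53.98% of all genes. Members varied together between mice, so here and in the other comparisons such counts of signs are not made of separate observations.

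The 3 members with the smallest p were Cldn11, Mag and Cryab. Cldn11 ranged from 118.1 to 224.0 CPM in Old Veh (median 161.6) and from 117.6 to 245.5 CPM in Old PF4 (median 177.8), a log2 fold change of 0.16 ± 0.09 (SE; edgeR adjusted p = 0.883). Mag ranged from 110.7 to 182.1 CPM in Old Veh (median 154.7) and from 128.9 to 198.4 CPM in Old PF4 (median 175.9), a log2 fold change of 0.13 ± 0.08 (SE; edgeR adjusted p = 0.895). Cryab had medians of 87.0 and 91.3 CPM and a log2 fold change of 0.14 ± 0.09 (SE; edgeR adjusted p = 0.895). In all 3 the groups overlapped over most of their range.

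The 5 members called with age stayed near their Old Veh level in Old PF4. Aspa had a median of 28.1 CPM in Old PF4, Tmem88b of 85.4, Anln of 38.6, Plekhb1 of 414.5 and Myrf of 40.97 CPM. Their log2 fold changes with PF4 were 0.03, 0.01, -0.02, 0.05 and -0.08, each smaller than its SE of 0.06 to 0.10. Of the 34 other oligodendrocyte genes none was called. The 3 with the smallest p were St18 at -0.22 ± 0.07 (SE; edgeR adjusted p = 0.354), the protease Klk6 at 0.82 ± 0.31 (SE; edgeR adjusted p = 0.626) and Sox8 at 0.21 ± 0.08 (SE; edgeR adjusted p = 0.677). Klk6 rested on few reads, with 2 to 38 per library in Old Veh and 9 to 123 in Old PF4, where replicates 3 and 6 held 123 and 118 and the others at most 32.

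PF4 given to young mice likewise led to no call among the members. Of the 38, none was called between Young PF4 and Young Veh, as for all genes (0% called by edgeR and none by DESeq2, with 1.2% of all genes and 1 member at an unadjusted p under 0.05). The log2 fold changes were above 0 in 5 members and below 0 in 33, where 45.7% of all genes were above 0. The median over the members was -0.05 beside -0.01 over all genes. The count above 0 moved with single mice. Without Young PF4 replicate 11, whose mean over the members was the lowest of all 47 libraries (5.85 log2 CPM), 14 of 38 were above 0. Without Young PF4 replicate 8, whose mean was the highest, 2 were.

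Ninj2 had the smallest p, with 1.57 to 3.13 CPM in Young Veh (median 2.40) and 0.701 to 2.72 CPM in Young PF4 (median 1.79). The difference rested on 3 to 48 reads per library, and 5 of 12 Young PF4 mice were below all Young Veh mice. The log2 fold change was -0.37 ± 0.15 (SE; edgeR adjusted p = 1.00). Anln had medians of 34.3 and 32.95 CPM (-0.11 ± 0.07 SE) and Ugt8a of 82.8 and 74.3 CPM (-0.11 ± 0.08 SE). Both groups overlapped for each of these genes.

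**Figure D3:**
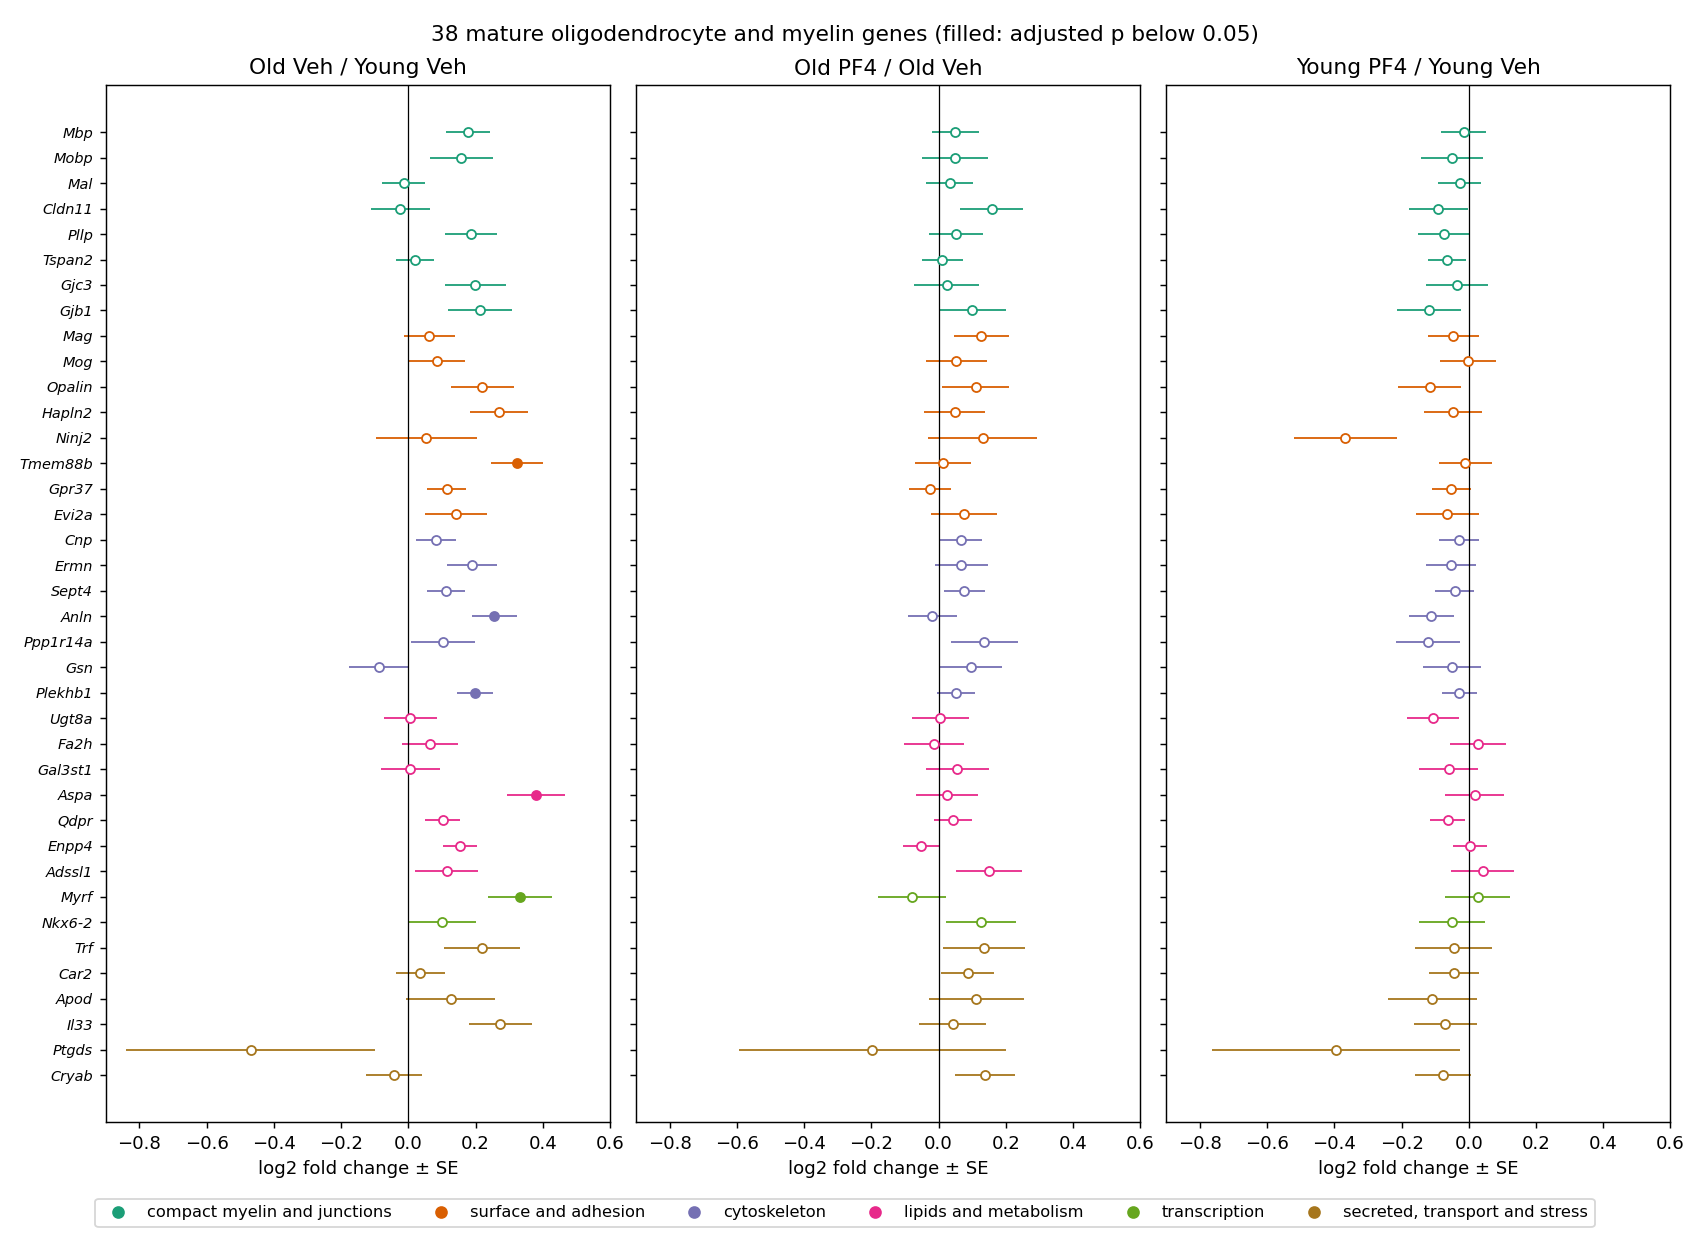
Log2 fold change ± SE (edgeR) of the 38 members, coloured by role, for Old Veh against Young Veh, Old PF4 against Old Veh and Young PF4 against Young Veh, with filled points for an adjusted p below 0.05. In the age panel 5 points are filled and 33 of 38 lie right of 0, and no point is filled in the PF4 panels.

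The effect of PF4 was not shown to differ between ages for any member. In old mice that effect cannot be told apart from library number. The interaction test of edgeR called none of the 38, and 0% of all genes, and DESeq2 called no member and no other gene. Before adjustment, p was under 0.05 for 1 member (2.63%) and for 3.98% of all genes. The difference is the log2 fold change in old mice minus that in young mice. It was above 0 for 35 members and for 55.37% of all genes, with medians of 0.11 and 0.01. Its smallest p was that of Ninj2, at 0.50 ± 0.22 (SE; unadjusted edgeR p = 0.0294), followed by Cldn11 at 0.25 ± 0.13 (SE) and Ppp1r14a at 0.26 ± 0.14 (SE), none of which passed the adjusted threshold.

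The mean log2 CPM over the 38 members, given here without a test, describes each mouse by 1 value. Young Veh stood at 6.36 ± 0.07 (SD, n = 13) and Young PF4 at 6.30 ± 0.20 (SD, n = 12). Old Veh stood at 6.47 ± 0.16 (SD, n = 12) and Old PF4 at 6.53 ± 0.08 (SD, n = 10). The ranges overlapped in all groups, from 6.23 to 6.46 in Young Veh and from 6.15 to 6.65 in Old Veh. The spread within a group was widest in Young PF4, which held the lowest and the highest of all 47 values, 5.85 in replicate 11 and 6.65 in replicate 8, the library with the high thalamic markers. The part of that tissue in its level was not tested.

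**Figure D4:**
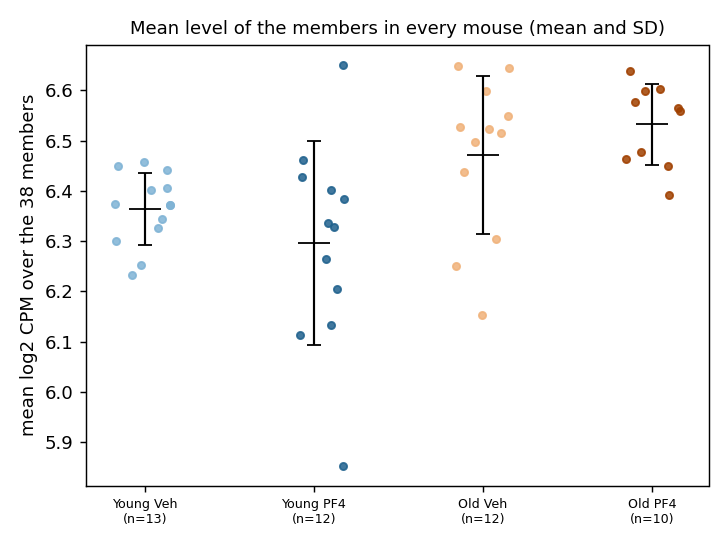
Mean log2 CPM over the 38 members in every mouse by group, each point 1 mouse, with the group mean and SD. Group means run from 6.30 in Young PF4 to 6.53 in Old PF4, and Young PF4 replicate 11 at 5.85 is the lowest point.

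Mice of the same group differed in the members together. With group means removed, the 703 pairs of members had a median Pearson r of 0.44 over the 47 mice, with 299 pairs (42.5%) above 0.5 and 57 below 0. Over all pairs of the 17778 genes tested 2.94% were above 0.5. Mbp had the highest median r with the other members (0.64), ahead of Cnp and Plekhb1 (both 0.62), and Ptgds the lowest (0.02). All points share the libraries, so depth and composition are common to both axes.

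Mobp served as the reference gene for the rest. By a permutation of mice within groups, adjusted over the 37 other members, 21 correlated with it positively and Il33 negatively (r = -0.35, adjusted p = 0.0395, but rho = -0.06), and by Spearman's rho 22 were positive and none negative. An r at least as high as that of the weakest of the 21 (0.35) was reached by 56.8% of the members and by 15.3% of all genes tested, and an r at or below that of Il33 by 17.8% of all genes. The closest were Cldn11 (r = 0.88, rho = 0.90), Gjc3 (r = 0.81, rho = 0.75), Ugt8a (r = 0.78, rho = 0.63), Nkx6-2 (r = 0.76, rho = 0.76), Myrf (r = 0.76, rho = 0.71) and Mag (r = 0.74, rho = 0.71), all with adjusted p = 3.4e-05, from the smallest p that the permutations can give. Without the 2 mice farthest from the median of Mobp, Young Veh replicate 4 and Young PF4 replicate 11, r was 0.87 for Cldn11, 0.74 for Gjc3, 0.72 for Ugt8a, 0.79 for Nkx6-2, 0.73 for Myrf and 0.73 for Mag. Members that did not follow Mobp included Mog (r = 0.13), Sept4 (0.17), Qdpr (0.09), Evi2a (-0.04), Trf (-0.11) and Car2 (-0.18).

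With Mog as the reference, a choice made after these values were seen, 23 of 37 members correlated positively and none negatively, and the order was another one. An r of 0.51 or more, that of the weakest of the 23, was reached by 62.2% of the members and 2.54% of all genes. Evi2a (r = 0.85, rho = 0.81), Plekhb1 (r = 0.80, rho = 0.79), Sept4 (r = 0.78, rho = 0.79), Mbp (r = 0.78, rho = 0.71) and Qdpr (r = 0.75, rho = 0.71) led, each with adjusted p = 2.467e-05. Cldn11, Myrf and Ugt8a had r of 0.15, 0.15 and 0.08 with Mog. Without the 2 mice farthest from the median of Mog, Young PF4 replicate 11 and Old Veh replicate 8, r with Mog was 0.83 for Evi2a, 0.77 for Plekhb1, 0.78 for Sept4, 0.68 for Mbp and 0.75 for Qdpr, and -0.06 for Mobp, 0.02 for Cldn11, -0.11 for Myrf and -0.02 for Ugt8a. The distance between these sets depended on which libraries were left out, and it narrowed without 2 others, Young Veh replicate 4 and Old PF4 replicate 8, which lay farthest out on the length index. Without those 2 Mog and Mobp correlated at r = 0.50, Cldn11 with Mog at 0.41, Myrf with Mog at 0.47 and Evi2a with Mobp at 0.47, and 28 of 37 members correlated positively with Mobp and 32 of 37 with Mog.

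The length index itself, also examined after the values were seen, correlated positively with 6 of 38 members, among them Ugt8a (r = 0.53, rho = 0.24) and Mobp (r = 0.50, rho = 0.23), and negatively with 11, among them Cryab (r = -0.66, rho = -0.57), Il33 (r = -0.64, rho = -0.47) and Evi2a (r = -0.60, rho = -0.48). By rho 11 were negative and 1 positive, Ptgds (rho = 0.38), so neither Ugt8a nor Mobp passed by that measure. Without the 8 shallowest libraries 7 were positive and 15 negative by r, and 0 positive and 18 negative by rho. Correlations of this size with the length index were common among all genes, of which 17.3% had an r at least as high as the weakest of the 6 members and 20.8% one at least as low as the weakest of the 11, against 15.8% and 28.9% of the members. Without those 2 libraries r was 0.24 for Ugt8a, 0.17 for Mobp, -0.45 for Cryab, -0.44 for Il33 and -0.38 for Evi2a, and no member passed the adjusted threshold by r, although 5 did by rho, all negatively. No member correlated with the log10 total count at an adjusted p below 0.05.

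**Figure D5:**
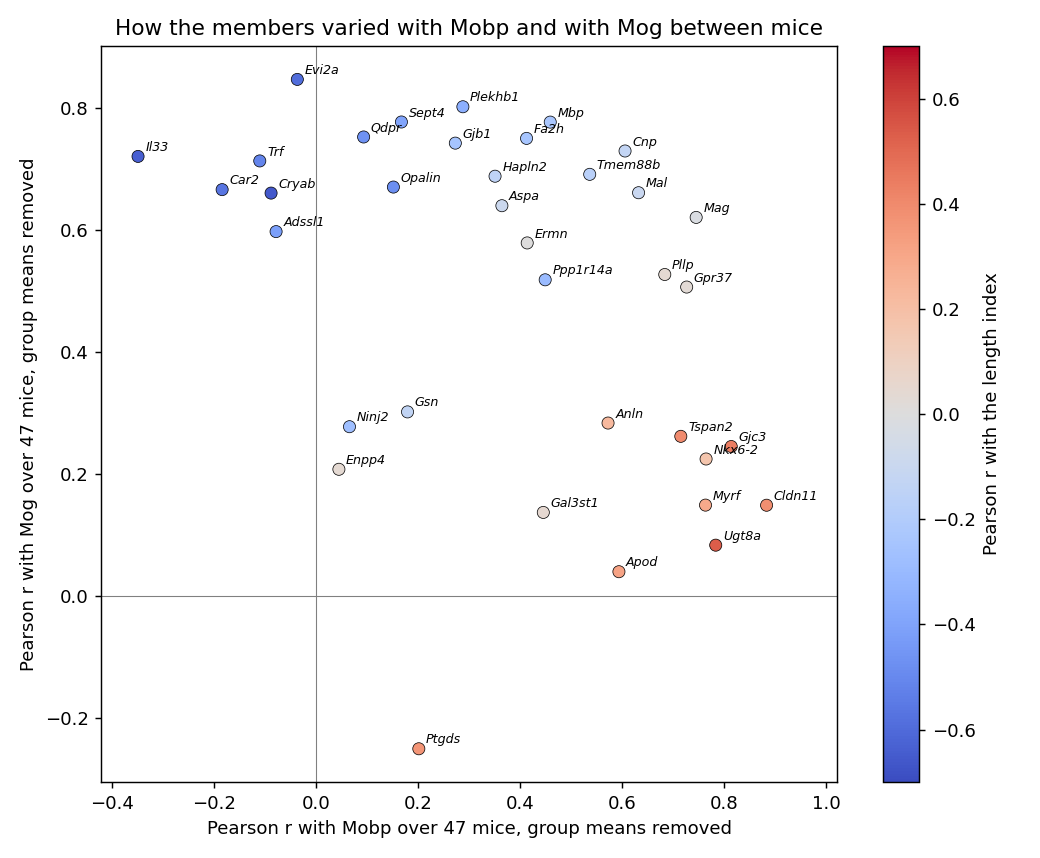
Pearson r of each member with Mobp (horizontal) and with Mog (vertical) over 47 mice with group means removed, coloured by r with the length index. Cldn11, Ugt8a and Myrf lie at the lower right, Evi2a, Il33 and Car2 at the upper left, Mbp, Cnp and Mag at the upper right and Ptgds alone below 0 on the vertical axis.

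Levels of other tissue in the dissection were set beside the members in the same way. Ttr, the transthyretin made by choroid plexus, ranged from 2.96 to 3838 CPM. Of 38 members, 3 correlated with it: Gsn (r = 0.62, rho = 0.62, adjusted p = 0.000760), Ptgds (r = 0.50, rho = 0.49, adjusted p = 0.0173) and Trf (r = 0.42, rho = 0.39, adjusted p = 0.0488, and 0.0941 for rho). Such an r with Ttr (0.42 or more) was reached by 7.89% of the members and 6.44% of all genes, so the count is near the background. Car2 was close behind at r = 0.41 (adjusted p = 0.0587). Without the 2 mice farthest from the median of Ttr, r was 0.57 for Gsn, 0.49 for Ptgds and 0.36 for Trf.

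The mean of 8 meningeal fibroblast markers, a reference added after the values were seen, correlated positively with 3 of 38 members and negatively with none. They were Ptgds (r = 0.96, rho = 0.94), the lipid carrier Apod (r = 0.75, rho = 0.71) and Gsn (r = 0.64, rho = 0.66), each with adjusted p = 0.0001267, from the smallest p that the permutations can give. An r of 0.64 or more was reached by 1.55% of all genes. Without the 2 mice farthest from the median of this mean, r was 0.96 for Ptgds, 0.72 for Apod and 0.63 for Gsn.

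Dcn, the gene for decorin and the ninth meningeal marker, did not follow that mean closely (r = 0.51, rho = 0.51). Its highest level of all mice, 74.1 CPM from 874 reads, was in Old PF4 replicate 8, which had the lowest meningeal mean of its group, 2.53 log2 CPM over all 9 markers. As a single gene Dcn correlated positively with Ptgds (r = 0.45, rho = 0.41, adjusted p = 0.0167) and negatively with 16 members, and an r as negative as the weakest of these (-0.37) was found in 42.1% of the members and 3.61% of all genes. Mag (r = -0.60, rho = -0.61, adjusted p = 0.000380), Myrf (r = -0.57, rho = -0.54, adjusted p = 0.00167) and Cldn11 (r = -0.54, rho = -0.46, adjusted p = 0.00152) were the most negative with Dcn, while their r with the mean of the other meningeal markers was -0.14, 0.04 and 0.09. Without the 2 mice farthest from the median of Dcn, r was 0.39 for Ptgds, -0.57 for Mag, -0.55 for Myrf and -0.46 for Cldn11.

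Ptgds varied over a wider range than any other member. It spanned 12.2-fold between the lowest and the highest mouse, 161.9 to 1972 CPM, with a within-group SD of 0.97 on the log2 scale, while Mbp spanned 2.06-fold with an SD of 0.17 and Trf 3.20-fold with an SD of 0.30.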

How the data were processed

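The authors isolated RNA from homogenised hippocampus, made unstranded Smart-Seq2 and Nextera XT libraries, and deposited raw read counts per gene, which are the values used here. The submitters' processing notes name Trim Galore 0.3.7, STAR 2.5.3a, DESeq2 and the GRCm38 genome. The counting tool is not given in the sources used here. Smart-Seq2 amplifies cDNA without molecular identifiers, so reads are not independent molecules.

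From the counts, genes were filtered with filterByExpr, scaled with TMM and fitted with edgeR 4.0.16 (R 4.3.3) in 1 quasi-likelihood model of the 4 groups over all 47 libraries, with Benjamini-Hochberg adjustment over the 17778 genes tested and calls below 0.05. SEs were derived from the fold change and its F statistic. DESeq2 1.42.0 was an alternative. Totals were 2242879 to 21112908 reads, and counting error is largest for Ninj2, the member with fewest reads. Correlations used log2 CPM with a prior count of 2, group means removed and 100000 permutations of mice within groups, adjusted within each reference (7 families: Mobp, Ttr, Dcn and, added later, Mog, the length index, the log10 total count and the mean of the meningeal markers other than Dcn), and r over all genes tested gave the background shares. The length index contrasted genes with a longest GENCODE transcript of at least 4594 bases with those of at most 2006 bases. Promoter windows came from RefSeq (GRCm38.p6). The scripts were tested on simulated data. Groups came from the sample labels, and Old PF4 replicate 4 was not analysed here. Each library is 1 mouse, so the edgeR tests set group differences against the variation between mice within groups. That variation does not cover differences between the blocks of library numbers that separate the ages, and Old Veh from Old PF4.

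Every member is accounted for, with full values for those called, for the 3 with the smallest p where none was called, and for other lists the genes called or with the smallest p. Members, lists and this rule were chosen with earlier results of these data known. Alternatives tried were other scalings, count filters, covariates, a replicate block and leaving out libraries.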

Additional observations from a re-analysis of the deposited data

Results flagged for a closer look

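In Old PF4, the one group of a size at which a single sample far from the rest was looked for (10 mice), 6 of the 38 members had such a sample on the log2 CPM scale, where chance flags about 1 in 20. Old PF4 replicate 8 was the sample in 5 of them. It was the lowest for Myrf (gap to the next sample over the whole range 0.621, at 25.95 CPM against a group median of 40.97), for Mobp (0.613, 570.2 against 963.7 CPM), for Ugt8a (0.533, 55.6 against 82.5 CPM) and for Nkx6-2 (0.486, 13.7 against 21.4 CPM), and the highest for Evi2a (0.536, 62.0 against 39.01 CPM). This library had 12380047 reads and a length index of -0.228, the lowest of its group, and its mean over the members, 6.45 log2 CPM, lay within the range of Old PF4. Without it, 0 members were called between Old PF4 and Old Veh and 30 of 38 had a log2 fold change above 0. The sixth was Adssl1 in Old PF4 replicate 10, the lowest of its group (0.483, 16.6 against 22.4 CPM).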

How the results depend on the processing

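Leaving out 1 library reversed the sign of no median log2 fold change of the members. Some single correlations with Mobp changed sign without the 2 libraries farthest on the length index: Evi2a went from -0.04 to 0.47, Trf from -0.11 to 0.23 and Car2 from -0.18 to 0.13, and Il33 went from -0.35 to 0.00. The number of members called with age was 5 and became 9 with the length index as a covariate (Anln, Aspa, Evi2a, Hapln2, Il33, Opalin, Plekhb1, Tmem88b and Trf, with 901 genes called in all), 2 with depth as a covariate, 2 without the 8 libraries of lowest depth and 0 with library number as a covariate, where 0 genes were called in all and 1188 had an unadjusted p under 0.05. The cause was not tested. Leaving out 1 library gave 3 to 6 calls, the 3 without Old Veh replicate 1, and median log2 fold changes of 0.10 to 0.15, and across these fits 1.67% to 2.72% of all genes were called higher. Myrf lost its call in many of these fits. The calls numbered 4 to 6 with DESeq2, median-of-ratios size factors, no filter, a stricter filter, only the groups compared, the replicate block and the choroid plexus and meningeal covariates, where 1.14% (no filter) to 2.86% (DESeq2) of all genes were called higher. No setting called a member in either PF4 comparison or in their difference, where leaving out 1 library gave medians of 0.03 to 0.08 in old mice, -0.08 to -0.02 in young mice and 0.08 to 0.14 for the difference.

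Replicate numbers are shared between groups only as numbers. Same-numbered libraries of Young Veh and Old Veh deviated together at r above 0.1 in 3 of 12 cases and correlated best with each other in 1. For Old Veh and Old PF4 these counts were 5 and 2 of 10, and for Young Veh and Young PF4 4 and 2 of 12. With the replicate block 6 members were called with age, adding Enpp4, and 453 genes in all in place of 492.

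Depth limits the low members most: Ninj2 had 3 reads in its shallowest case, and a change of its size in PF4 could not be told from 0. Adding a prior count of 0.5 moved no count of correlated members, and without the 8 shallowest libraries 17 members correlated positively with Mobp, 4 with Ttr and 1 with Dcn, and 14 negatively with Dcn in place of 16. Without the 2 libraries farthest on the length index 21 correlated negatively with Dcn.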
